A study of Mus musculus with 48 samples.

Results

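Iron entry, storage, export and its hormonal control were followed through 10 genes of 46517 in the count tables, taken by their symbols: the hepcidin genes Hamp and Hamp2, the transferrin receptors Tfrc and Tfr2, Hfe, the ligand Bmp6, its target Id1, the exporter Slc40a1 and the ferritin genes Fth1 and Ftl1. They were read across 5 groups, all labelled as wild type albino C57BL/6N mice, although the text of the study names an albino B6/J strain. Livers were the endogenous livers of donor mice (3 samples), hepatocytes were primary cells isolated from donor livers by collagenase perfusion (3 samples), and spheroids were those cells aggregated in vitro (2 samples). Explants were spheroids transplanted into the anterior chamber of the eye of recipient mice and collected 2 months post-tx with the iris they had grown on (5 samples, numbered 1, 2, 4, 5 and 6). Irises were naïve, without spheroids (3 samples). The study describes adult mice of both sexes but did not collect sex as information, so the sex behind these samples is not known. Each explant therefore mixes donor cells with recipient iris, and the culture medium of the spheroids contained transferrin, insulin, selenium and dexamethasone.

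Hepcidin is the liver hormone that limits iron in plasma: it binds ferroportin, the product of Slc40a1 and the only known cellular iron exporter, and causes its degradation. Hepatocytes raise Hamp through BMP ligands such as Bmp6, made mainly by sinusoidal endothelial cells, which act through SMAD proteins, and Id1 is a target of the same signal. Tfr2 and Hfe take part in sensing iron-loaded transferrin, while Tfrc imports it. Mice carry a second gene, Hamp2, whose product is not known to regulate iron in the same way. Iron-regulatory proteins bind hairpins in the mRNAs of the ferritins, Slc40a1 and Tfrc, blocking translation at the 5′ end and protecting Tfrc mRNA at the 3′ end, so that ferritin protein can change without any change of the mRNA measured here.

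These hairpins are shown because they tie 4 of the genes to one sensor. They were searched in the GENCODE M21 transcripts (GRCm38) as a C, 5 bases, the loop CAGTG followed by any base but G, and 5 bases that pair with the first 5, G with U included. Of 21291 protein-coding transcripts, 1 per gene, 174 (0.817%) held a match, and 21 (0.0986%) also had at least 4 of 5 pairs in the lower stem, as every match below did. The loop is in capitals. The matches of Fth1, Ftl1 and Slc40a1 were in the 5′ UTR and the 4 of Tfrc in the 3′ UTR.
Fth1, chr19:9982733-9982759 (+): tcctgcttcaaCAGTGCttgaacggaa
Ftl1, chr7:45459780-45459806 (-): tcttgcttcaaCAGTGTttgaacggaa
Slc40a1, chr1:45925466-45925492 (-): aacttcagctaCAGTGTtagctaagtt
Tfrc, chr16:32631220-32631246 (+): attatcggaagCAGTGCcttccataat
Tfrc, chr16:32631599-32631625 (+): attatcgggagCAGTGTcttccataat
Tfrc, chr16:32631664-32631690 (+): tatatcggagaCAGTGAtctccatatg
Tfrc, chr16:32631711-32631737 (+): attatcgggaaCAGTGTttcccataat

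The 250 bases before and 50 after the start of the hepcidin genes are shown because both genes fell together in culture (RefSeq, GRCm38.p6, minus strand, written along the gene). Capitals mark GGCGCC, the core of the BMP-responsive element, and TTCNNNGAA, a STAT motif; both read alike on either strand and they did not overlap.
Hamp, chr7:30943980-30944279 (-): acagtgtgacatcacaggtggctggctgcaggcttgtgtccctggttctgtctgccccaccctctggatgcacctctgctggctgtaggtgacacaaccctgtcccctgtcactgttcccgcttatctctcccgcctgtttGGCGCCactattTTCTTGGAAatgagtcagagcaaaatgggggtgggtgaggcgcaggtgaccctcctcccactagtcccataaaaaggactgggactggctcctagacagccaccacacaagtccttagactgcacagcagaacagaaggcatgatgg
Hamp2, chr7:30924132-30924431 (-): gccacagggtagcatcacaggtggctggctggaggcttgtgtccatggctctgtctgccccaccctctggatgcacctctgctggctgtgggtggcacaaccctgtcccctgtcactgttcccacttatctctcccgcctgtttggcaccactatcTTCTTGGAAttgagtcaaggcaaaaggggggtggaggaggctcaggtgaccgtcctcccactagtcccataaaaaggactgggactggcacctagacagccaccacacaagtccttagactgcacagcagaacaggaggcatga
GGCGCC was in the Hamp window from base 142 and not in that of Hamp2, and TTCNNNGAA was in both, from base 154 and base 157. Of 32851 promoter windows, 11.9% held GGCGCC and 8.30% held TTCNNNGAA. Among the 12 windows of the 8 members in the table, GGCGCC was also in 1 window of Tfrc. These matches are descriptions of the sequence and not of factor binding.

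Total counts ran from 2718518 to 6789648 per sample, each the sum of 3 technical libraries. Hepatocyte markers summed to between 12592 and 13305 TPM (a level scaled to length and to the total of the sample) in livers and to between 4771 and 6574 TPM in explants. They were not absent from naïve irises, at 1552 to 1831 TPM, of which Alb alone gave 753 to 861 TPM, while the hepatocyte factor Hnf4a was at 1.46 to 2.14 TPM there against 211 to 234 TPM in livers. Alb had 1.56, 1.52 and 1.62 counts per base and library in livers, hepatocytes and spheroids, and fewer in explants and irises. No gene of at least 500 bases had over 1.70. Removal of duplicate reads can limit such counts, as described below with Fth1. Whether it limited Alb, and with it these sums, was not tested. Kupffer cell markers were lower in explants, at 3.97 to 62.8 TPM before any subtraction of iris, than in spheroids, at 469 to 511 TPM. By the shares given below, iris held 59.0 to 82.0% of these explants. After subtraction of iris 1 of 5 Kupffer cell markers passed as lower than in spheroids, beside 5.95% of all genes. In bulk samples, fewer cells of a type and less RNA per cell cannot be told apart.

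**Figure D1:**
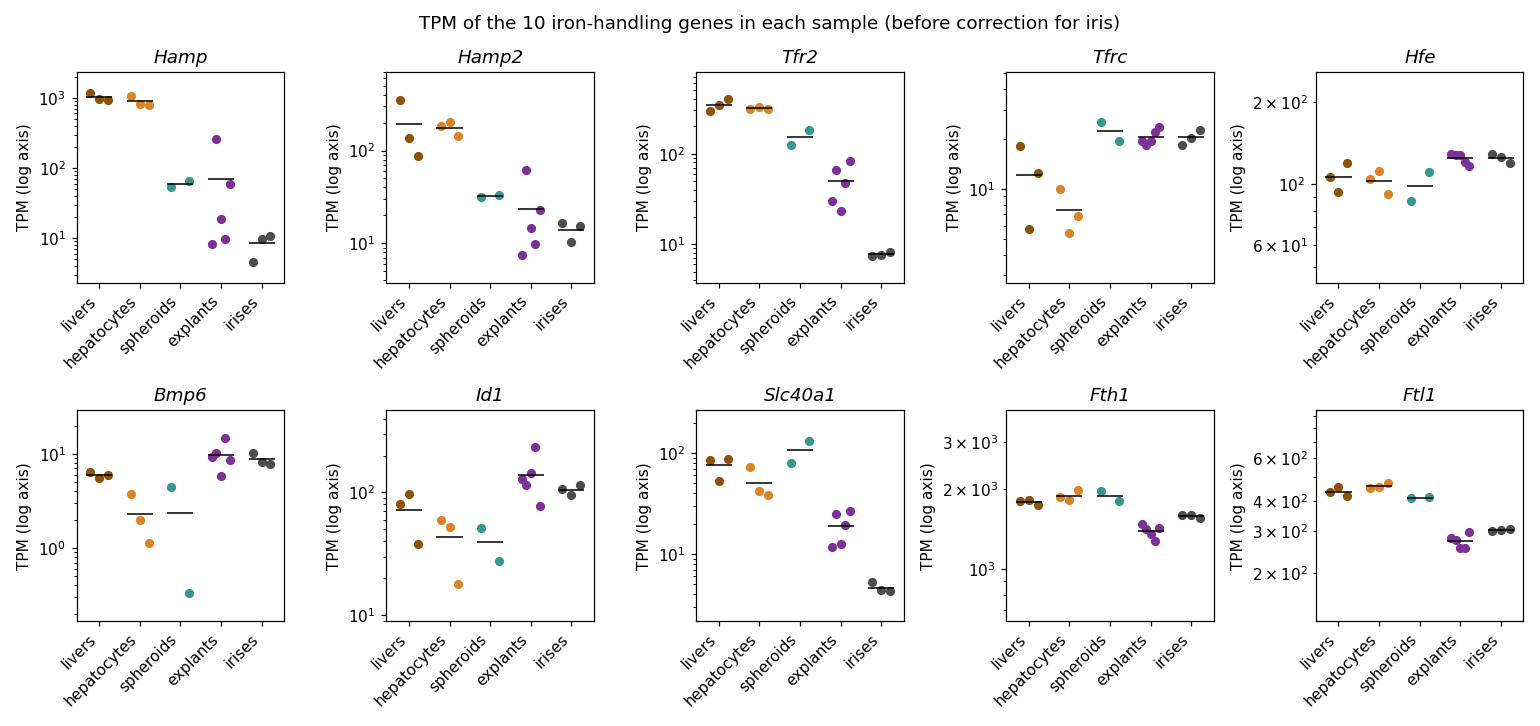
TPM of each gene (vertical log axis) in every sample of the 5 groups (horizontal axis), before any subtraction of iris; points are samples and lines are group means. Hamp, Hamp2 and Tfr2 were high in livers and hepatocytes and lower in spheroids, while Hfe stayed between 87.0 and 129 TPM in all 16 samples.

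Hamp (ENSMUSG00000050440, chr7:30942371-30944017, minus strand, mm10) encodes hepcidin. Its level was 1175, 970 and 922 TPM in the 3 livers and 1075, 817 and 782 TPM in the 3 hepatocyte preparations. Both spheroid samples were far below, at 54.3 and 65.7 TPM, and the irises held 4.59, 9.82 and 10.8 TPM. Livers and hepatocytes overlapped and neither overlapped the spheroids. Isolation left Hamp at a log2 fold change of -0.06 ± 0.15 (SE) against livers (adjusted p = 0.837, edgeR quasi-likelihood test). From hepatocytes to spheroids Hamp fell 18.5-fold (log2 fold change -4.21 ± 0.25, adjusted p = 8.65e-05). The spheroid values rested on 28 and 32 counts, with exact Poisson 95% intervals of 18.6 to 40.5 and 21.9 to 45.2, which cover counting error only. Beside this fall, hepatocyte markers summed to 10225 and 11225 TPM in spheroids and 12728 to 15708 TPM in hepatocytes. Of these 8 markers 1 passed as lower, beside 17.2% of all genes. Both sums include Alb, whose counts may be limited in both groups, as stated above. Hnf4a was 203 to 229 against 159 to 233 TPM, but Cyp2e1 was 137 to 152 against 2449 to 3332 TPM. Kupffer cell markers were 469 to 511 against 101 to 200 TPM. Their part in the fall was not tested.

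Explants 1, 4 and 5 held 8.33, 18.7 and 9.83 TPM of Hamp, explant 6 held 59.8 TPM and explant 2 held 257 TPM. The counts behind them were 6, 15, 9, 49 and 197 for explants 1, 4, 5, 6 and 2, against 3, 6 and 7 in the irises. Explants 1 and 5 lay within the range of the irises, and the other 3 above it. Against irises the log2 fold change was 3.19 ± 1.32 and did not pass the test (adjusted p = 0.153). Hepatocyte markers summed to 5993 TPM in explant 2, against 4771 to 6574 TPM over the explants. Its Kupffer cell markers (51.2 TPM) were below those of explant 6 (62.8 TPM). Sinusoidal endothelial markers were 58.5 and 54.9 TPM in explants 2 and 6, and 24.7 to 31.2 TPM in explants 1, 4 and 5. Macrophage markers were 1238 and 1402 TPM in explants 2 and 6, and 605 to 836 TPM in explants 1, 4 and 5. The part of these cells in the Hamp level of explant 2 was not tested.

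**Figure D2:**
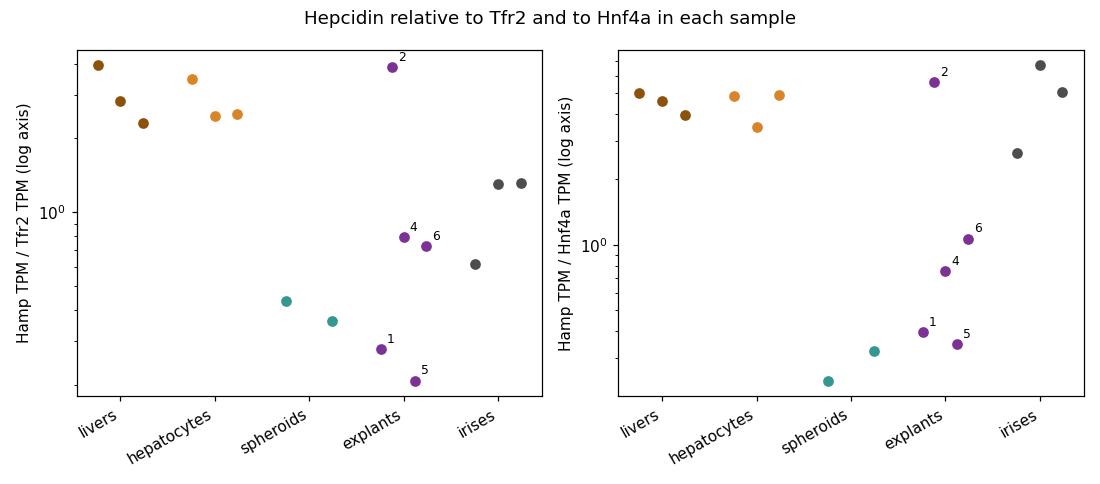
Hamp TPM divided by Tfr2 TPM (left) and by Hnf4a TPM (right), both on log axes, in every sample of the 5 groups; explants carry their numbers. Explant 2 sits among the livers in the left panel, at 3.88, and the other 4 explants lie between 0.208 and 0.794.

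Hamp was also read relative to Tfr2 and to Hnf4a, both low in iris. Iris enters these ratios in explants, most where Hamp was within the range of irises. Hamp over Tfr2, both in TPM, was 2.30 to 3.94 in livers, 2.47 to 3.46 in hepatocytes and 0.363 to 0.437 in spheroids. In explants 1, 4, 5 and 6 it was 0.279, 0.794, 0.208 and 0.729. Only explant 2, at 3.88, fell in the liver range. From corrected values, described below with the subtraction of iris, the ratio was 0.0608, 0.688, 0.0904 and 0.707 in the same 4 explants and 4.13 in explant 2. Relative to Hnf4a, Hamp was 0.349 to 1.07 in those 4 explants and 5.63 in explant 2, where the livers ranged from 3.95 to 5.03. Tfr2 over Hnf4a spread less, from 0.950 to 1.68 over the 5 explants. It was 1.28 to 1.71 in livers, 1.396 to 1.96 in hepatocytes, 0.541 to 0.890 in spheroids and 3.86 to 5.16 in irises. Explant 4 lay between spheroids and livers, and the other explants lay within the liver range. These ratios are given without a test, and the irises themselves gave 0.61 to 1.31 for Hamp over Tfr2 and 2.64 to 6.72 for Hamp over Hnf4a, on at most 7 Hamp counts.

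Hamp2 (ENSMUSG00000056978, chr7:30922372-30924181, minus strand) lies beside Hamp and resembles it closely, so reads that map to both were left out of the counts and the split between the genes is uncertain. It was 352, 135 and 87.5 TPM in livers and 183, 205 and 142 TPM in hepatocytes. It fell to 31.3 and 33.2 TPM in spheroids (log2 fold change -2.77 ± 0.29, adjusted p = 0.000904, edgeR). Explants ranged from 7.47 to 62.0 TPM, again highest in explant 2, and irises from 10.3 to 16.5 TPM, so that these groups overlapped (log2 fold change 0.85 ± 0.71, adjusted p = 0.476). Liver 1 was high in both hepcidin genes.

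Tfr2 (ENSMUSG00000029716, chr5:137569840-137587481, plus strand), the hepatocyte receptor that takes part in iron sensing, was 298, 345 and 400 TPM in livers and 311, 331 and 312 TPM in hepatocytes. Spheroids held 124 and 181 TPM, below every hepatocyte preparation (log2 fold change -1.37 ± 0.26, adjusted p = 0.00848, edgeR). The explants held 29.9, 66.2, 23.5, 47.3 and 82.0 TPM in the order of their numbers, all above the irises at 7.47 to 8.25 TPM. Tfr2 was thus 7.03-fold higher in explants than in irises (log2 fold change 2.81 ± 0.48, adjusted p = 0.00604).

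Tfrc (ENSMUSG00000022797, chr16:32608920-32632794, plus strand), the importer of transferrin-bound iron, went the other way in culture. It was 9.96, 5.40 and 6.83 TPM in hepatocytes and 25.4 and 19.4 TPM in spheroids, with no overlap (log2 fold change 1.25 ± 0.27, adjusted p = 0.0129, edgeR). Livers spread from 5.69 to 18.02 TPM. Explants (18.4 to 23.7 TPM) and irises (18.4 to 22.7 TPM) could not be told apart (log2 fold change 0.12 ± 0.14, adjusted p = 0.626). The rise in spheroids lost its call without spheroid 1 (adjusted p = 0.0712).

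Slc40a1 (ENSMUSG00000025993, chr1:45908068-45926523, minus strand), the ferroportin gene, was 85.8, 52.6 and 87.1 TPM in livers, 38.8 to 72.1 TPM in the 3 hepatocyte preparations and 79.5 and 133 TPM in spheroids. The step from hepatocytes to spheroids was 0.77 ± 0.34 on the log2 scale and did not pass (adjusted p = 0.137, edgeR), except without hepatocyte sample 1 (log2 fold change 1.09, adjusted p = 0.0411). Explants held 11.9, 24.7, 12.7, 19.3 and 26.9 TPM, all above the irises at 4.31 to 5.27 TPM (4.47-fold, log2 fold change 2.16 ± 0.35, adjusted p = 0.00468). Macrophages also use Slc40a1: the macrophage markers summed to 605 to 1402 TPM in explants against 408 to 448 TPM in irises, and their part in the Slc40a1 level was not tested.

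Bmp6 (ENSMUSG00000039004, chr13:38345716-38499728, plus strand) was low, at 5.55 to 6.36 TPM in livers and 1.12 to 3.78 TPM in hepatocytes, and 4.42 and 0.33 TPM in the 2 spheroid samples, the latter from 1 count. The step from livers to hepatocytes, -1.20 ± 0.43 on the log2 scale, had an adjusted p of 0.133 (edgeR). Sinusoidal endothelial markers summed to 223 to 296 TPM in livers, 54.7 to 178 TPM in hepatocytes and 65.1 to 69.4 TPM in spheroids. Their part in Bmp6 was not tested. Id1 (ENSMUSG00000042745, chr2:152736251-152737410, plus strand) was 79.9, 96.5 and 38.1 TPM in livers, 59.8, 52.7 and 17.8 TPM in hepatocytes and 51.1 and 27.8 TPM in spheroids, with overlap throughout. In explants it was 129, 115, 144, 235 and 78.3 TPM and in irises 95.2 to 115 TPM (log2 fold change 0.50 ± 0.27, adjusted p = 0.273).

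Hfe (ENSMUSG00000006611, chr13:23702034-23710854, minus strand), the gene mutated in hereditary haemochromatosis, did not pass in any of the 6 comparisons. Its means were 107 ± 12.9 (SD, n = 3) in livers, 103 ± 10.3 (n = 3) in hepatocytes, 98.8 ± 16.7 (n = 2) in spheroids, 125 ± 5.43 (n = 5) in explants and 125 ± 4.86 TPM (n = 3) in irises.

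Fth1 (ENSMUSG00000024661, chr19:9982703-9985092, plus strand) and Ftl1 (ENSMUSG00000050708, chr7:45457944-45459884, minus strand) encode the heavy and light chains of ferritin, the iron store of the cell. Fth1 was 1739 to 1819 TPM in livers, 1813 to 1976 TPM in hepatocytes and 1798 and 1970 TPM in spheroids, and 1272 to 1479 TPM in explants below 1558 to 1598 TPM in irises. Ftl1 was 417 to 456, 451 to 474 and 412 to 413 TPM in the same 3 groups, 254 to 298 TPM in explants and 300.5 to 306 TPM in irises. None of the 3 comparisons of counts passed for either gene, and the nearest was Ftl1 from hepatocytes to spheroids (log2 fold change -0.49 ± 0.17, adjusted p = 0.0756, edgeR). Where duplicate reads are removed by position, a base can hold few reads, and it is not stated here how they were removed. Fth1 had 0.794 to 0.947 counts per base and library in each group, where no gene of at least 500 bases had over 1.70. Whether its differences were limited in this way was not tested. Hamp was at 0.496 in livers, and the other 8 genes reached at most 0.240 in any library. Ftl1 shares exonic bases with another annotated gene on the same strand.

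Of the 10 genes, 2 passed between explants and irises, where 6.47% of all 16764 genes tested did (adjusted p under 0.05 and a log2 fold change past 1). Between hepatocytes and livers 0 passed, against 2.72% of all genes, with DESeq2 and limma-voom also giving 0 and 1 gene, Bmp6, at an unadjusted p under 0.05. Between spheroids and hepatocytes 4 passed, 1 higher and 3 lower, against 17.2% of all genes. The median log2 fold change of the members was 0.37, -0.025 and -0.43 in these comparisons, and that of all genes tested 0.0084, 0.0092 and 0.0073.

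**Figure D3:**
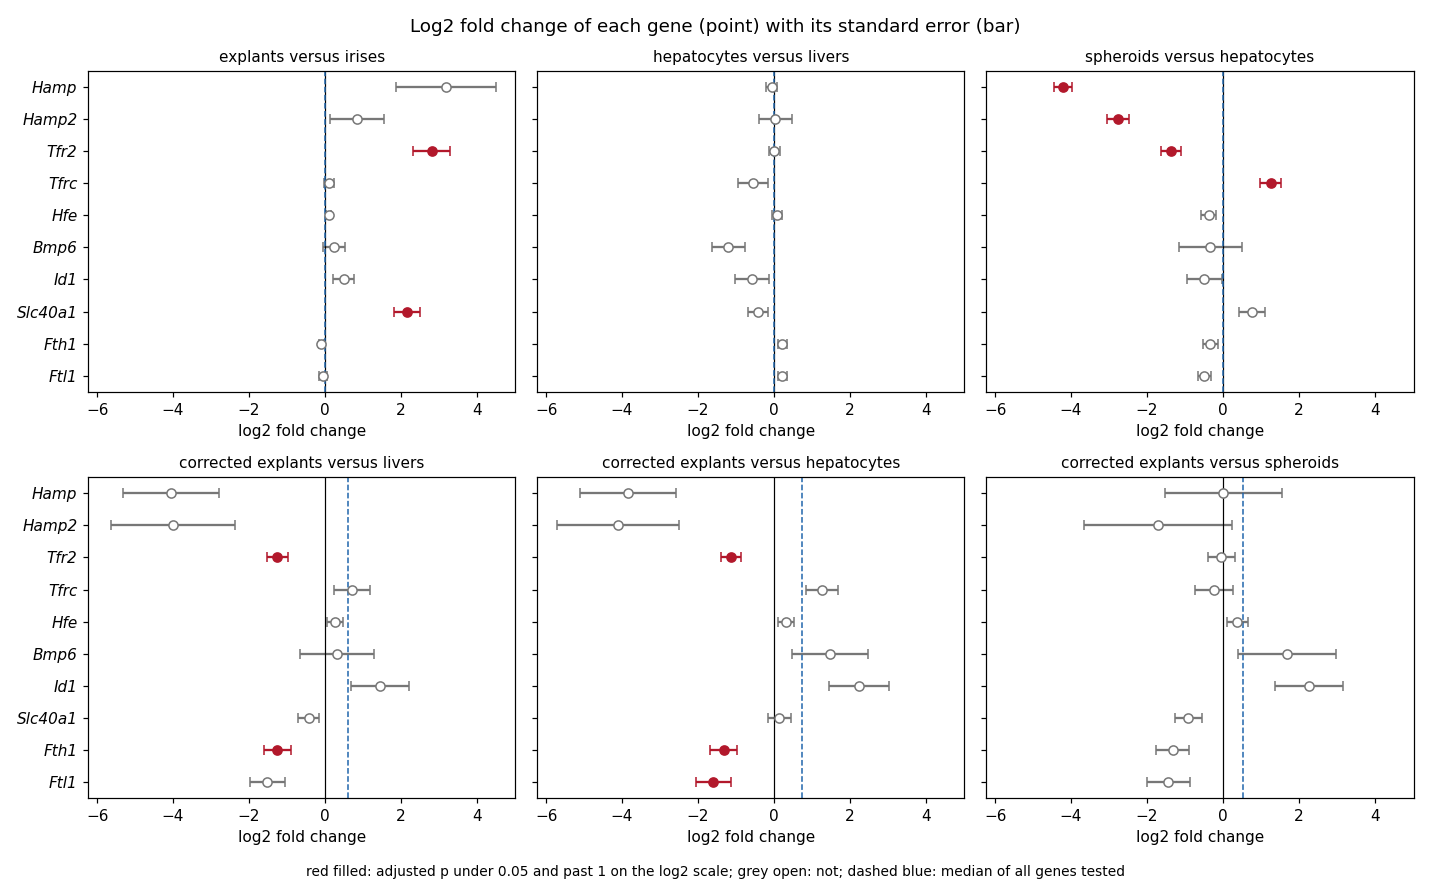
Log2 fold change (horizontal axis) of the 10 genes in the 6 comparisons; points are estimates, bars standard errors, filled red points passed the test and the dashed line is the median of all genes tested. In the 3 lower panels that median lies at 0.61, 0.75 and 0.54 rather than near 0.

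To compare the transplanted cells with liver, the study estimated the iris share of each explant and subtracted it from the TPM. The shares recovered from the deposited values were 82.0, 68.0, 81.0, 72.0 and 59.0% for explants 1, 2, 4, 5 and 6. The same subtraction was applied to all 5 here, negative results were set to 0, and log2(TPM + 1) was tested with limma, so fold changes are on that scale and understate those of low genes. Values after subtraction are called corrected. The correction amplifies error where iris holds most of the RNA. The median of all genes was above 0, before correction (0.86, 1.05 and 0.74) and less so after it, so each member is to be read against that median. The member medians were -0.84, -0.49 and -0.14 against livers, hepatocytes and spheroids, where those of all genes were 0.61, 0.75 and 0.54 after correction. The 3 comparisons share the 5 explants, and 2, 3 and 0 members passed against livers, hepatocytes and spheroids, beside 14.8%, 19% and 5.95% of all genes.

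Corrected Hamp was 7.95, 786, 62.4, 13.5 and 134 TPM in explants 1, 2, 4, 5 and 6. Explant 2 neared the livers and the other 4 lay below every liver and hepatocyte sample. Against livers the log2 fold change was -4.05 ± 1.27 (adjusted p = 0.0613, limma) and against hepatocytes -3.85 ± 1.27 (adjusted p = 0.0628), so neither passed. Without explant 2 both did (log2 fold change -4.97, adjusted p = 0.0109, and -4.77, adjusted p = 0.00831). With all 5 explants both passed with the share from 19 iris-specific genes (-4.19, adjusted p = 0.043, and -3.99, adjusted p = 0.0444), and the first passed among genes of a mean of at least 10 TPM (adjusted p = 0.0497). Both also passed without correction, and neither passed in the remaining settings. Against spheroids the difference was 0.015 ± 1.54 (adjusted p = 0.996), an error too wide to tell alike from unlike. Corrected Hamp2 was below 0 in explants 1 and 5 and 164 TPM in explant 2, and its log2 fold change of -4.00 ± 1.64 against livers had an adjusted p of 0.136, or 0.0436 without explant 2.

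Corrected Tfr2 was 131, 190, 90.7, 149 and 189 TPM, below every liver and hepatocyte sample. It was lower than in livers (log2 fold change -1.25 ± 0.27, adjusted p = 0.0156, limma) and hepatocytes (-1.13 ± 0.26, adjusted p = 0.0158). Against spheroids it gave -0.05 ± 0.36 (adjusted p = 0.941). Corrected Hnf4a, at 96.2 to 138.9 TPM, was also below every liver and hepatocyte sample, and below both spheroid samples. Of 8 hepatocyte markers 0 passed against livers or hepatocytes. Corrected Alb, 1 of these markers, had a mean of 5713 TPM, against 3222 TPM in livers and 3630 TPM in hepatocytes. Whether removal of duplicates limited Alb was not tested. The part of hepatocyte content in the Tfr2 differences was not tested. For Tfr2, leaving out liver 2 or liver 3, or any hepatocyte sample, took the adjusted p to between 0.0617 and 0.0912. Leaving out explant 4 took its fold change against hepatocytes to -0.96. The deposited corrected values (adjusted p = 0.062 and 0.0632) and the wider iris gene set (0.0619 and 0.0742) ended both calls. So did a replicate block (0.191 and 0.13), which kept only explants 1 and 2 and the samples of the same numbers. Both calls held in 14 and 11 of 19 alternatives.

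Corrected Fth1 fell from 1388 ± 77.9 TPM before subtraction to 824 ± 360 TPM (SD, n = 5), and Ftl1 from 273 ± 18.6 to 175 ± 89.8 TPM. Fth1 passed against livers (log2 fold change -1.25 ± 0.36, adjusted p = 0.0485, limma) and hepatocytes (-1.33 ± 0.37, adjusted p = 0.0325). Ftl1 passed against hepatocytes (-1.59 ± 0.47, adjusted p = 0.0423) but not against livers (-1.51 ± 0.47, adjusted p = 0.06). These calls were the least stable: Fth1 kept its call against livers in 5 of 19 alternatives and against hepatocytes in 9 of 19, and Ftl1 against hepatocytes in 7 of 19. With an assumed limit of 2 reads per base undone, Fth1 was -0.89 against livers (adjusted p = 0.0617). With an iris share taken from a wider set of iris-specific genes, 2 explants were at 0 for Fth1.

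**Figure D4:**
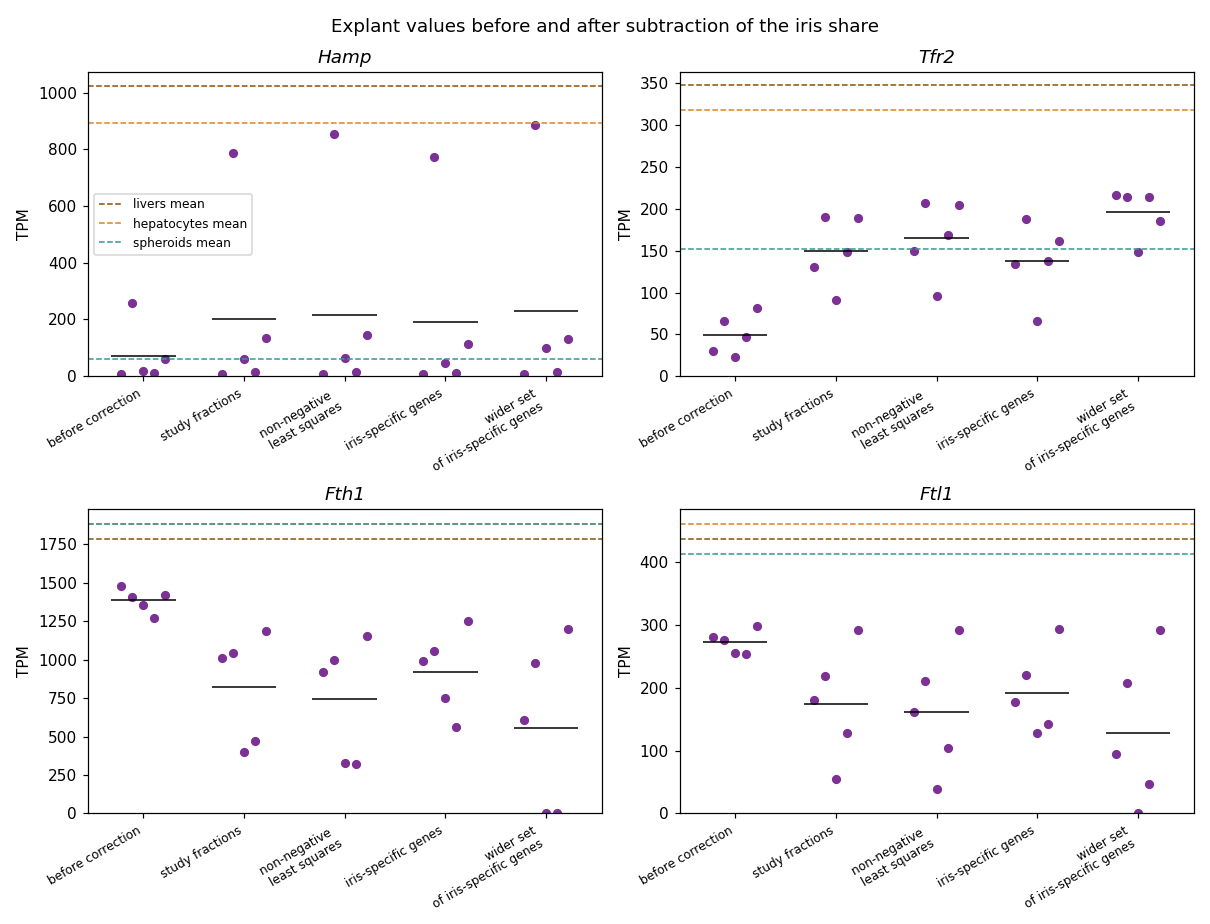
TPM (vertical axis, linear from 0) of 4 genes in the 5 explants before subtraction of iris and after it with 4 estimates of the iris share (horizontal axis); points are explants, black lines means, dashed lines the means of livers, hepatocytes and spheroids. Tfr2 rose from a mean of 49.8 to between 137 and 196 TPM, while Fth1 spread from 0 to 1197 TPM with the wider set of iris-specific genes.

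Slc40a1, Tfrc, Id1, Bmp6 and Hfe did not pass in any corrected comparison as fitted with the iris shares of the study. Corrected Slc40a1 was 44.7 to 67.4 TPM and overlapped hepatocytes and livers (log2 fold change 0.15 ± 0.30 against hepatocytes, adjusted p = 0.727, limma). Corrected Tfrc, 13.9 to 28.3 TPM, gave 1.27 ± 0.42 against hepatocytes (adjusted p = 0.0614), and it passed without explant 4 (adjusted p = 0.0497), with only genes of a mean of at least 10 TPM (0.0393) and with an iris share from 19 iris-specific genes (0.0357). Corrected Id1 ranged from 39.1 TPM in explant 6 to 567 TPM in explant 5. Its log2 fold change was 2.24 ± 0.79 against hepatocytes (adjusted p = 0.078), and without explant 6 it was 2.79 (adjusted p = 0.0107), while the 19 iris-specific genes gave 2.22 (adjusted p = 0.0465). Corrected Bmp6 was below 0 in explant 4 and 29.5 TPM in explant 5. Against hepatocytes it gave 1.49 ± 1.01 (adjusted p = 0.322), and without explant 4 2.27 (adjusted p = 0.0212). Without correction Tfrc, Id1 and Bmp6 also passed against hepatocytes, and in the remaining settings they did not. Against spheroids 0 members passed, and 4 had an unadjusted p under 0.05: Fth1, Ftl1, Slc40a1 and Id1.

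The wider pathway was read from 5 lists of genes. Of 21 genes that regulate hepcidin, 17 were tested between spheroids and hepatocytes, 0 were higher and 3 lower, a share near the 17.2% of all genes, with a median of -0.32. Id2 and Id3 are targets of BMP signalling and Smad7 its inhibitor. Id3 went from 288 ± 61.4 to 68.4 ± 6.15 TPM (log2 fold change -2.40 ± 0.26, adjusted p = 0.00107, edgeR), Id2 from 671 ± 107 to 355 ± 35.8 TPM (-1.26 ± 0.22, adjusted p = 0.0058) and Smad7 from 5.11 ± 1.08 to 1.45 ± 1.04 TPM (-2.15 ± 0.49, adjusted p = 0.0172). Their fellow target Id1 did not pass (-0.49 ± 0.46). Hjv, the BMP co-receptor, and Tmprss6, the protease that cleaves it, did not pass (-0.09 ± 0.27 and -0.55 ± 0.21). Between hepatocytes and livers 2 of 19 were lower, where 2.72% of all genes passed, and both are ligands: Bmp2 went from 10.5 ± 1.74 to 1.52 ± 0.57 TPM (-2.62 ± 0.35, adjusted p = 0.0195) and Bmp5 from 7.78 ± 3.98 to 0.37 ± 0.28 TPM (-4.10 ± 0.59, adjusted p = 0.0262). Stellate cell markers summed to 489 to 1164 TPM in livers and 125 to 188 TPM in hepatocytes, with 3 of 5 lower, and 1 of 5 sinusoidal endothelial markers was lower. Their part in the ligands was not tested. In explants against irises 3 of 20 were higher, beside 6.47% of all genes, Tmprss6 (4.35 ± 0.46), Hjv (3.80 ± 0.53) and Atoh8 (1.42 ± 0.24). Against livers corrected Hjv was lower (-1.22 ± 0.32, adjusted p = 0.0308, limma) and the iris-rich ligand Bmp4 higher (3.39 ± 0.78, adjusted p = 0.0192), where irises held 299 ± 21.8 TPM of it. Corrected Id3 exceeded that of spheroids (2.66 ± 0.30, adjusted p = 0.00292), and irises held 541 ± 11.6 TPM.

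In the inflammatory arm of 8 genes, Socs3, the feedback inhibitor of IL-6 signalling, was the 1 gene that passed in each comparison of counts. That was 1 of 7 tested between explants and irises, beside 6.47% of all genes. It was 1 of 6 between hepatocytes and livers and between spheroids and hepatocytes, beside 2.72% and 17.2%. Socs3 was 9.49 ± 1.05 TPM in livers, 179 ± 82.9 TPM in hepatocytes and 5.31 ± 5.14 TPM in spheroids, with log2 fold changes of 4.38 ± 0.40 (adjusted p = 0.00445, edgeR) and then -5.42 ± 0.67 (adjusted p = 0.0017). In the first of these steps Hamp gave -0.06 ± 0.15. Explants held 55.2 ± 26.2 TPM of Socs3 against 25.9 ± 1.82 TPM in irises (1.20 ± 0.34, adjusted p = 0.0489). In corrected explants Stat3, the transcription factor of the same signal, was higher than in livers (1.47 ± 0.28, adjusted p = 0.00918, limma), hepatocytes (1.84 ± 0.28, adjusted p = 0.0022) and spheroids (1.66 ± 0.36, adjusted p = 0.0335), and Socs3 was higher than in livers and spheroids (3.50 ± 0.47 and 4.52 ± 0.70).

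Among 18 genes of iron uptake and transport, 16 were tested between spheroids and hepatocytes, 2 were higher and 3 lower, beside 17.2% of all genes. Lcn2, a siderophore-binding acute phase protein, rose from 18.5 ± 15.8 to 435 ± 76.5 TPM (log2 fold change 4.23 ± 0.54, adjusted p = 0.00185, edgeR), and the macrophage haptoglobin receptor Cd163 rose (2.09 ± 0.49, adjusted p = 0.0196). Of 5 Kupffer cell and 5 macrophage markers 2 each were higher too, and their part in Cd163 was not tested. Lrp1, which takes up haem bound to hemopexin, fell (-2.49 ± 0.30, adjusted p = 0.00155), as did the metal importer Slc39a8 (-1.89 ± 0.29, adjusted p = 0.00388). Trf, the transferrin gene, was 2106 ± 48.6, 2340 ± 254 and 2455 ± 16.1 TPM in livers, hepatocytes and spheroids and did not pass. It had 1.02, 0.980 and 1.05 counts per base and library there, 0.821 in explants and 0.201 in irises. Whether removal of duplicates by position limited its differences was not tested. Cp, the ferroxidase ceruloplasmin, was 317 ± 21.8 TPM in hepatocytes and 777 ± 0.137 TPM in spheroids, just under the fold limit (0.96 ± 0.22, adjusted p = 0.0187). Between explants and irises all 18 were tested, 4 were higher and 0 lower, beside 6.47% of all genes. The 4 were Trf, Cp, Hp (haptoglobin) and Hpx (hemopexin), with log2 fold changes of 1.81 ± 0.17, 1.05 ± 0.19, 3.20 ± 0.20 and 3.02 ± 0.20.

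Of 7 genes of intracellular iron sensing and storage 6 were tested and 0 passed in each of the 6 comparisons (edgeR or limma). Of all genes 2.72 to 19% passed, so 0 of 6 sets this list little apart. An unadjusted p under 0.05 was reached by 3 in each comparison of counts and by 1 or 2 in the corrected ones. Results of other tools for this list are not given here. In haem handling, 8 genes, 7 were tested between spheroids and hepatocytes, 1 was higher and 2 lower, beside 17.2% of all genes. Hmox1, which opens the haem ring and frees its iron, was 24.8 ± 4.97 TPM in hepatocytes and 99.8 ± 3.14 TPM in spheroids (log2 fold change 1.68 ± 0.20, adjusted p = 0.00138, edgeR), and Blvrb (-1.03 ± 0.22) and Flvcr2 (-2.43 ± 0.73) were lower. Corrected Hmox1 exceeded that of livers (1.46 ± 0.29, adjusted p = 0.011, limma) and hepatocytes (2.19 ± 0.28, adjusted p = 0.000956). Corrected Flvcr2 exceeded that of livers (2.47 ± 0.71), hepatocytes (2.95 ± 0.56) and spheroids (4.21 ± 0.68), and irises held 17.4 ± 1.46 TPM of it. Against livers and hepatocytes these were 2 of 8 genes, beside 14.8% and 19% of all genes. Against spheroids Flvcr2 was 1 of 8, beside 5.95%. Against livers and hepatocytes 4 of 5 macrophage markers were higher, and their part in Hmox1 and Flvcr2 was not tested.

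The genes whose log2(TPM + 1) most resembled Hamp over the 8 samples of livers, hepatocytes and spheroids, among 9714 genes, were Aldh4a1 (Pearson r = 0.996), Gatd3a (0.994), Gm15318 (0.994), Slc38a3 (0.994) and Serpina6 (0.993). All were lower in spheroids, as Serpina6, the corticosteroid-binding globulin, shows with means of 947, 685 and 32.6 TPM. Among those nearest to Tfrc were Chrac1 (0.981), Kidins220, Stim1 and Cldn12 (0.966). Those nearest to Id1 were Hapstr1 (0.939), Gm28038, Lemd2, Fbxw8 and Baz1b (0.909). These correlations describe 8 samples that share group differences and depth, and carry no test.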

How the data were processed

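RNA was sequenced from 16 samples, each as 3 Smart-seq3 libraries. Per the labels, file headers and software list of the study, the authors aligned reads to mm10 with TopHat2, removed duplicates (UMI-tools and SAMtools are named, without saying which was used for this) and deposited counts per gene from featureCounts 1.4.6-p5 (exons, unstranded, a read in overlapping genes counted for each). The deposited TPM were recalculated from the summed counts (largest difference 5.46e-12). The deposited corrected table was taken as a score, since its columns do not share 1 total; in it explant 4 had been corrected by another formula than the other explants, so all 5 were corrected alike here. No per-sample column was left out.

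Libraries were summed per sample. Counts were tested with edgeR 4.0.16 and corrected TPM with limma 3.58.1 on log2(TPM + 1) for genes of mean TPM of at least 1, with Benjamini-Hochberg adjustment over all genes tested. Other settings used DESeq2 1.42.0 and limma-voom. The study describes biological replicates, but the labels do not tie each sample to a mouse, so p-values measure the spread between these samples. The scripts were tested on simulated data. Members and lists were chosen with earlier results of these data known. Named genes are the members, 9 fixed pathway genes, at most 4 called genes per list and comparison with the largest fold change, and the 5 nearest patterns, of which 1 is not reported here.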

Additional observations from a re-analysis of the deposited data

Results flagged for a closer look

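Hamp in explant 2 stood far from the other 4 explants, at 257 TPM before correction and 786 TPM after it (gap over range 0.793 and 0.838, where Dixon's limit for 5 samples is 0.71). Hamp2 in explant 2 did as well, at 62.0 TPM before correction and 164 TPM after it (0.716 and 0.781). The limit was applied to TPM without a logarithm, so the flags describe that scale only, and log values were not examined. Chance flags about 1 group in 20 where values are normally distributed, which was not tested here. In all, 20 sets of values were examined, and the 4 flags share 1 sample and 2 neighbouring genes.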

How the results depend on the processing

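Other settings were applied one at a time to the count of members called and to each member. Between explants and irises the 2 calls became 1 with limma-voom (Tfr2, log2 fold change 2.60, adjusted p = 0.0592) and stayed at 2 in the others. Between hepatocytes and livers the count was 0 throughout, and between spheroids and hepatocytes it was 4 in every setting with all samples and 3 to 5 leaving out 1 sample. Against livers, the 2 calls of corrected explants became 1 with a pseudocount of 0.1, without a filter, with iris shares by least squares and with an assumed duplicate limit of 2 undone, 4 with a mean of at least 10 TPM, without correction and with 19 iris-specific genes, and 0 with the deposited corrected values and with a wider set of 322 iris-specific genes, chosen after seeing the data. Against hepatocytes, the 3 calls became 1 without a filter, by least squares and with the limit undone, 7 without correction, 6 with the 19 genes, and 0 with the deposited values and the wider set. Against spheroids, 0 became 4 without correction. Leaving out 1 sample gave 2 to 2 and 0 to 0 in the first 2 comparisons, and 0 to 4, 0 to 5 and 0 to 1 in the corrected ones. The causes were not tested.

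Same-numbered samples did not all deviate together (correlations of 0.0696, 0.0247 and -0.0627 for hepatocytes and livers, 0.0883 and 0.121 for spheroids and hepatocytes, 0.222 and 0.0422 for spheroids and livers, 0.121 and 0.0866 for explants and irises, and 0.144 and -0.0844 for explants and livers), so they were not treated as pairs. The replicate block also kept only samples whose number was in both groups. In comparisons of explants it kept samples 1 and 2 of each group, without explants 4, 5 and 6. Between spheroids and hepatocytes it left out hepatocyte sample 3. There the effect of the block and that of fewer samples cannot be told apart. With the replicate block, 2, 0 and 4 members were called in the comparisons of counts and 0, 0 and 0 in the corrected ones. Under it, corrected Tfr2 against spheroids turned to 0.074 and corrected Slc40a1 against hepatocytes to -0.0045.

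All reversals were of log2 fold changes that did not pass as reported. Between hepatocytes and livers, Hamp turned to 0.0054 with all 5 groups in 1 fit, Hamp2 to -0.086, Tfr2 to -0.10 and Hfe to -0.024 with library size alone, Hamp2 to -0.0052 and Tfr2 to -0.029 with at least 10 counts in every sample, and Tfr2 to -0.0027 and -0.0045 with assumed duplicate limits of 2 and 1.8 undone. In corrected explants against spheroids, Hamp turned to -0.019 with a pseudocount of 0.1, -0.95 without correction, -0.0048 with the deposited values and -0.13 with the 19 genes, Tfr2 to 0.088 by least squares and 0.37 with the wider set, and Hfe to -0.13 with the deposited values. Against livers, the deposited values turned Tfrc to -0.071 and Hfe to -0.24, and a pseudocount of 0.1 turned Bmp6 to -0.22. Against hepatocytes, Hfe turned to -0.19 with the deposited values, and Slc40a1 to -1.39 without correction, where it passed, and -0.0028 with the 19 genes. Library size alone moved the median of all genes to -0.10 between hepatocytes and livers and to 0.27 between spheroids and hepatocytes, where 1531 genes were then higher and 808 lower instead of 996 and 1116. Leaving out 1 sample, the log2 fold changes that crossed 0 ranged as follows. Between hepatocytes and livers Hamp ranged from -0.20 to 0.022, Hamp2 from -0.31 to 0.77 and Tfr2 from -0.12 to 0.13. Tfrc between explants and irises ranged from -0.015 to 0.19, and Bmp6 between spheroids and hepatocytes from -2.86 to 0.46. In corrected explants Hamp ranged from -0.91 to 0.71 and Tfr2 from -0.32 to 0.22 against spheroids, Bmp6 from -0.13 to 1.10 against livers and Slc40a1 from -0.018 to 0.42 against hepatocytes.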

Other observations

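Alas2, the erythroid enzyme that begins haem synthesis, was among the erythroid markers and was singled out after its values were seen. It was 150, 220 and 249 TPM in livers and 284, 313 and 305 TPM in hepatocytes, while the globin gene Hbb-bs went from 206 to 291 TPM in livers to 17.5 to 34.1 TPM in hepatocytes. In spheroids Alas2 was at 2.21 and 3.01 TPM, on 7 and 9 counts (log2 fold change -7.16 ± 0.28 against hepatocytes, adjusted p = 3.78e-05, edgeR), and it passed in all 16 fits with a value there, the reported one included. Corrected explants held 29.6 to 109 TPM, above both spheroid samples and below every liver (log2 fold change 4.32 ± 0.56 against spheroids, adjusted p = 0.00502, limma). That difference passed in 16 of 19 fits. The difference against livers (-1.49 ± 0.41, adjusted p = 0.04, limma) was less stable and passed in 10 of 20. The cause was not tested.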
